A study of Homo sapiens with 40 samples.

Results

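Collagen genes encode the chains of the triple-helical proteins that make up most of the extracellular matrix. All genes whose symbol in the platform annotation reads COL, a number, A and a number were taken, with 1 antisense gene left out. That gave 43 genes of the 19775 with a probe set that names a single gene. They were followed on 40 expression arrays of LNCaP, an androgen-responsive human prostate cancer cell line established from a lymph node metastasis. The resistant clones, labelled insensitive to MDV3100 (enzalutamide, an antagonist of the androgen receptor), carry the numbers 1, 9, 10, 14, 15, 19 and 24. The control lines, labelled sensitive, have titles beginning D+E- (control 1 below), D+R- (control 2) and M+R- (control 3), codes that the labels do not explain. All lines were grown in serum-supplemented medium, seeded 3 days before treatment, and given 10 µM MDV3100 or its solvent, 0.1% DMSO, for 24 h. There were 14 arrays of clones in MDV3100, 14 of clones in DMSO, 6 of control lines in MDV3100 and 6 of control lines in DMSO, as each line and treatment had an array numbered replicate 1 and another numbered replicate 2. Each resistant group is a set of 7 single clones and each control group a set of 3 lines. The labels do not state that replicates came from separate cultures, so the replicates of a line could differ by technical variation alone. P-values cover only how these samples vary. In the test of the drug in control lines that is variation between arrays, and elsewhere it is variation between the values of lines.

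A collagen molecule is a trimer of chains that are hydroxylated and folded in the endoplasmic reticulum, secreted, and assembled outside the cell. Fibrillar collagens such as types I, III and V form the fibres of stroma, collagen IV forms the mesh of basement membranes, and collagen VI forms beaded filaments next to them. In the prostate, stromal fibroblasts make most fibrillar collagen, while epithelial cells rest on and contribute to the basement membrane.

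Of the 43 collagen genes, 14 passed the filter on dim genes, a mean of 4.8 on the log2(signal + 16) scale or a signal of about 11.9, and were tested. The other 29 were counted and not tested, and 23 of them never reached a signal of 16 on any array. Signal is the MAS5 intensity of a gene's brightest probe set, scaled so that the trimmed mean of every array is 150. It depends on the probes as well as on the transcript, so levels of different genes were not set against each other. Of the fibrillar collagens, 3 of 11 passed (COL1A1, COL3A1 and COL5A2). Of the collagen IV chains, which form basement membrane networks, 3 of 6 passed (COL4A2, COL4A5 and COL4A6). Of the beaded filament and related chains, 3 of 7 passed (COL6A1, COL6A2 and COL26A1). The fibril-associated collagens with interrupted helices, known as FACIT, had 3 of 10 above the filter (COL9A2, COL9A3 and COL16A1). COL7A1, the chain of the anchoring fibrils that tie epithelium to the matrix below, passed as the only member of its class. So did 1 of 2 multiplexins, COL18A1, whose protein carries the fragment endostatin. None of the 3 short-chain network collagens and none of the 3 transmembrane collagens passed.

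For several molecules only some of the chains were above the filter. COL1A2, the partner of COL1A1 in collagen I, had a highest signal of 8.6 over the 40 arrays. COL6A3, the third chain of collagen VI, reached 12.5 at most, and COL4A1, the usual partner of COL4A2, reached 12.5 as well. COL5A1, which forms collagen V with COL5A2, reached 21.7. COL9A1, which assembles with COL9A2 and COL9A3, reached 2.6. A low signal says that the brightest probe set was dim, not that the transcript was absent. The members nearest the filter were COL4A6 and COL16A1 just above it, each with a mean of 4.94, and COL11A2, a fibrillar chain of cartilage, just below it with a mean of 4.69 and a highest signal of 34.7, the highest of any untested member.

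**Figure D1:**
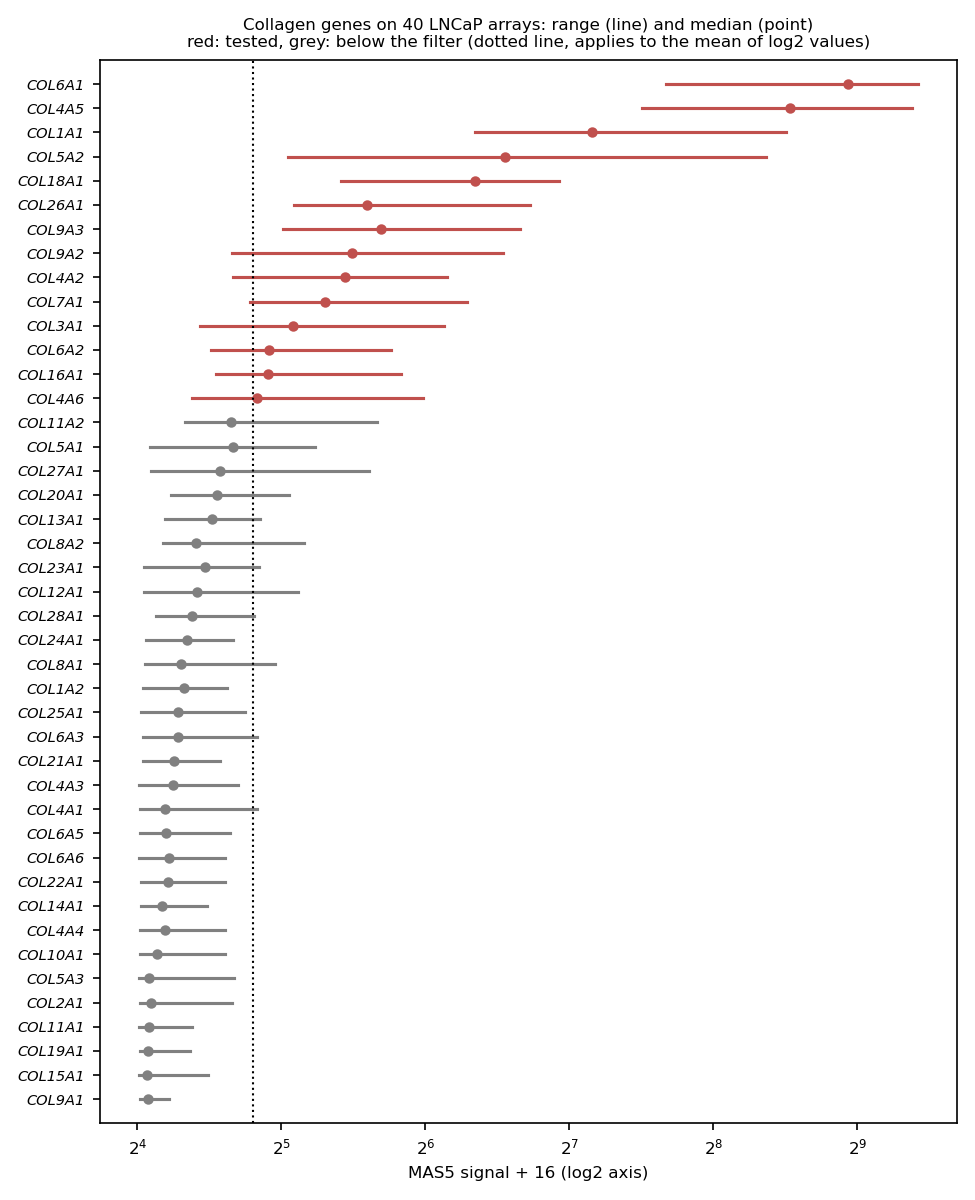
MAS5 signal + 16 of each of the 43 collagen genes over the 40 arrays, on a log2 axis, with the range as a line and the median as a point. The 14 genes in red were tested, and the 29 in grey lay below the filter, whose value for the mean is the dotted line.

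Pairs of tested collagen genes lie side by side in the genome. COL4A5 and COL4A6 on the X chromosome are transcribed away from each other from starts 380 bases apart, so that their upstream windows overlap. COL6A1, COL6A2 and COL18A1 lie close together on chromosome 21, and COL3A1 and COL5A2 are neighbours on chromosome 2. The sequences upstream of COL4A5, COL4A6, COL6A2 and COL18A1 are shown because each of these genes is followed below beside a neighbour. They are the 250 bases before the start in RefSeq's GRCh38.p14, at chrX:108439588-108439837 on the plus strand for COL4A5, chrX:108439459-108439708 on the minus strand for COL4A6, chr21:46097862-46098111 on the plus strand for COL6A2 and chr21:45404915-45405164 on the plus strand for COL18A1. COL4A6 and COL18A1 each have 2 such windows, of which 1 is shown. Capitals mark matches, on either strand, to the GC box GGGCGG, the CCAAT box, the TATA box TATAAA and AGAACA, a hexamer that the androgen receptor binds.
COL4A5: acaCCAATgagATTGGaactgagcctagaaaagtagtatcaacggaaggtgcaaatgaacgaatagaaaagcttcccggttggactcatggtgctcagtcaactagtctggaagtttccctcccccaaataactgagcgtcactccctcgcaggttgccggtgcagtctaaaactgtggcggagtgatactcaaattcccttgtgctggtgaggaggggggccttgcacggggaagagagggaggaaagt
COL4A6: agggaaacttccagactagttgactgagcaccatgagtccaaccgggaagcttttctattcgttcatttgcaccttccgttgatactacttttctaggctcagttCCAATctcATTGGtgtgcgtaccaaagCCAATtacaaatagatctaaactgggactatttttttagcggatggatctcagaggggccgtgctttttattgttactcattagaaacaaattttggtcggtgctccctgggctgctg
COL6A2: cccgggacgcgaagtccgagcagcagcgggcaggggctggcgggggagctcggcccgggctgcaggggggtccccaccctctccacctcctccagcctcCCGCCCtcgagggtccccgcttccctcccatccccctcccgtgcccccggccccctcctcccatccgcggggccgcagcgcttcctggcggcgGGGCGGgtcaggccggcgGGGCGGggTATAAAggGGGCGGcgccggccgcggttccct
COL18A1: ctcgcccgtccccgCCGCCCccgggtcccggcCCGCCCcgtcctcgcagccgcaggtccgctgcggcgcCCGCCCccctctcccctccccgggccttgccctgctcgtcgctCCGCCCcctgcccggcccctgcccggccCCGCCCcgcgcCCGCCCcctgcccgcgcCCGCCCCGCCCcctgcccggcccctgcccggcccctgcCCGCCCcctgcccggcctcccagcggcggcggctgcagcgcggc
COL4A5 and COL4A6 share a CCAAT match and its reverse ATTGG in the overlap of their windows, and neither window holds a GC box. The COL6A2 window has 4 GC box matches and a TATAAA match, and the COL18A1 window has 9 GC box matches, some of which overlap, in a sequence of 88.4% G and C. Of the 14 tested genes, 9 had a window in the table used. GC box matches were in 6 of these 9, CCAAT in 3, TATAAA in 2 and AGAACA in 0. Over 27305 windows of this length the shares were 42.3%, 33%, 11.1% and 12.4%.

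Arrays fell into sets by replicate number, which bears on every comparison below. For 36 of 40 arrays the best-correlated other array lay in the same replicate set. With each gene centred on its mean over all arrays, the median correlation across genes was -0.41 between the replicates of one label and 0.78 between MDV3100 and DMSO of the same line and replicate. The replicate 1 arrays labelled clone 1 matched the replicate 2 arrays labelled control 2 best. The drug was checked with KLK2, KLK3, TMPRSS2 and FKBP5, which androgen induces in prostate cells. Their mean log2 response to MDV3100 in replicate 1 was -1.37, -1.33 and -1.20 in clones 9, 10 and 14 and between -0.17 and 0.18 in clones 1, 15, 19 and 24, against -1.15, -1.52 and -0.93 in controls 1, 2 and 3. On the replicate 2 arrays the 7 clones lay between -0.28 and 0.18, against -1.21, 0.05 and -0.85 in controls 1, 2 and 3. Thus the arrays labelled clones 9, 10 and 14 in replicate 1 and control 2 in replicate 2 went against their sensitivity label by these genes. The 6 luminal prostate markers analysed were all above the filter, 0 of 5 leukocyte markers were, and of 10 fibroblast markers PDGFRB and FBLN2 were. Summed fibroblast marker signals lay between 33.2 and 141.2 except on the replicate 2 DMSO arrays of clones 14 and 24, which had 630.2 and 628.8, of which PRRX1 alone gave 590.3 and 585.0. Of the same list, DCN and LUM reached at most 9.0 and 7.0, while PDGFRB and FBLN2 reached 28.6 and 67.2. Of 5 smooth muscle markers MYH11, ACTA2 and TAGLN were above the filter, and of 5 endothelial markers VWF was. Summed smooth muscle markers in MDV3100 ran from 243.9 to 1004.6 in clones and 152.0 to 373.2 in control lines in replicate 1, and from 427.6 to 967.5 in clones and 567.9 to 1064.3 in control lines in replicate 2. In DMSO they ran from 274.9 to 890.7 in clones and 231.6 to 418.8 in control lines in replicate 1, and from 410.2 to 588.0 in clones and 536.6 to 1135.6 in control lines in replicate 2. Summed endothelial markers lay between 16.2 and 67.9 in clones over both sets and treatments. In control lines in replicate 1 they ran from 25.6 to 95.9 in MDV3100 and 63.5 to 135.3 in DMSO, and in replicate 2 from 18.1 to 61.3 in MDV3100 and 20.1 to 65.5 in DMSO. The part of these markers in the collagen values was not tested. Below, values are given for each set.

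The first comparison, of MDV3100 with DMSO in the control lines, asked what the drug does to collagen genes in sensitive cells. COL5A2, the collagen V chain that with its partners sets the width of collagen I fibrils, had the largest difference. In replicate 1 its signal was 299.8, 154.2 and 160.8 in MDV3100 in controls 1, 2 and 3, against 108.4, 56.8 and 109.0 in DMSO. In replicate 2 it was 134.8, 154.3 and 157.1 in MDV3100, against 66.8, 128.7 and 65.7 in DMSO. It was higher with the drug in 6 of 6 pairs, and the smallest gap was in control 2 of replicate 2, where the mean response of the check genes was 0.05. Whether these responses are linked was not tested. The line means were 7.54 ± 0.20 in MDV3100 and 6.67 ± 0.01 in DMSO on the log2(signal + 16) scale (SD, n = 3 lines), a difference of 0.88 ± 0.22 (SE). This did not pass limma's test over all genes with Benjamini-Hochberg adjustment (adjusted p = 0.294). It did pass with line and replicate number together as a block (adjusted p = 0.0121, 2.57% of all genes called), and in replicate 1 alone, where it was 1.02 (adjusted p = 0.0315, 1.18% called). On the replicate 2 arrays it was 0.73 (adjusted p = 0.166). With 1 difference per line (n = 3) the limma adjusted p was 0.00151, where 713 of 11893 genes were called. The other COL5A2 probe set gave 0.49 over all arrays (adjusted p = 0.824). The ratio of the 3′ to the 5′ actin probe sets was also higher in MDV3100 in all 6 control pairs, at 4.26 to 6.59 in MDV3100 and 3.18 to 4.12 in DMSO in replicate 1, and at 3.36 to 3.95 in MDV3100 and 3.30 to 3.70 in DMSO in replicate 2, and its part in the difference was not tested. In the clones this ratio was higher in MDV3100 in 5 of 7 pairs of replicate 1 and 2 of 7 of replicate 2. In RNA from whole cultures, fewer cells with a transcript and less of it per cell cannot be told apart.

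COL4A6, a basement membrane chain, was the member with the largest difference in the other direction. In replicate 1 its signal was 6.4, 4.9 and 5.7 in MDV3100 in controls 1, 2 and 3, against 9.5, 13.8 and 10.5 in DMSO. In replicate 2 it was 5.4, 23.9 and 10.3 in MDV3100, against 12.5, 37.0 and 16.9 in DMSO. It was lower with the drug in 6 of 6 pairs, at signals near or below the filter, and the difference of -0.36 ± 0.18 (SE) did not pass (adjusted p = 0.758, or 0.0634 with the block). COL6A1, a collagen VI chain, was higher in 6 of 6 pairs by 0.27 ± 0.10 (SE, adjusted p = 0.568), and COL16A1, a FACIT chain, by 0.33 ± 0.12 (SE, adjusted p = 0.546) in all 3 line means. Of the 14 tested collagen genes 0 were called at an adjusted p under 0.05, against 12 of 11893 genes called, or 0.101%. That fit did not pair a line's arrays by replicate number. With the block, which does, COL5A2 was the only collagen gene called, among 306 genes or 2.57%. Without the block, an unadjusted limma p under 0.05 was found for 3 of the 14, against 7.27% of all genes. By direction alone 12 of 14 were higher in MDV3100, with a median difference of 0.12, where 52.1% of all genes were higher and the median was 0.01.

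In the resistant clones, 0 of 14 collagen genes were called between MDV3100 and DMSO, against 60 of all genes or 0.504%. An unadjusted limma p under 0.05 was found for 2 collagen genes, against 16.2% of all genes. COL5A2 differed in opposite directions in the sets. In replicate 1 the 7 clones ran from 31.6 to 313.3 with a median of 132.2 in MDV3100, against 21.8 to 205.9 with a median of 112.3 in DMSO, and 6 of 7 were higher with the drug. In replicate 2 they ran from 17.0 to 54.9 with a median of 20.3 in MDV3100, against 28.3 to 59.3 with a median of 39.4 in DMSO, and 2 of 7 were higher. Over both sets the response was -0.003 ± 0.099 on the log2 scale (SE, n = 7 clones, 95% interval -0.222 to 0.215, limma adjusted p = 0.991). The 3 clones whose check genes were lower with the drug in replicate 1 had the 3 largest COL5A2 responses of the clones in that set, 0.94 in clone 9, 0.57 in clone 10 and 0.79 in clone 14, against -0.26 to 0.34 in clones 1, 15, 19 and 24. Control 3 of replicate 1, with a mean check gene response of -0.93, had a COL5A2 response of 0.50. Whether these responses are linked was not tested.

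COL16A1 and COL7A1 had the largest differences in the clones. COL16A1 was higher with the drug in 6 of 7 clones in each set, with medians of 18.3 in MDV3100 and 9.9 in DMSO in replicate 1 and of 14.2 in MDV3100 and 10.6 in DMSO in replicate 2. Its difference of 0.28 ± 0.09 (SE) had an adjusted p of 0.154, at levels close to the filter. COL7A1 had medians of 30.1 in MDV3100 and 24.7 in DMSO in replicate 1 and of 28.3 in MDV3100 and 23.4 in DMSO in replicate 2. Its difference was 0.20 ± 0.10 (SE, adjusted p = 0.38). COL9A2, a FACIT chain of cartilage, differed by 0.19 ± 0.07 (SE, adjusted p = 0.189).

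COL4A5, COL4A2, COL26A1 and COL3A1 passed in no comparison. COL4A5, a chain of the basement membrane of several epithelia, had signals of 165.7 to 648.9 in clones in MDV3100 and 181.9 to 571.1 in clones in DMSO. Its control lines had 197.0 to 611.5 in MDV3100 and 283.1 to 616.0 in DMSO, so all 4 groups overlapped. COL4A2, a chain of the common collagen IV network, had 16.3 to 42.0 in clones and 10.6 to 30.5 in control lines in MDV3100, against 9.3 to 55.1 in clones and 14.6 to 35.5 in control lines in DMSO. COL3A1 had its highest signals, up to 54.1, in clones of replicate 1 in MDV3100, where the median was 23.4, and reached 28.4 in control lines in MDV3100. COL26A1 ran from 18.0 to 90.1 over the 40 arrays with a median of 32.4, and its largest difference was -0.30 ± 0.22 (SE, adjusted p = 0.419), between clones and control lines in MDV3100.

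The response of the clones was then set against that of the control lines in one test per gene, with a line as the replicate. COL5A2 was the 1 of 14 collagen genes called, and it responded less in clones, among 85 genes called in all, 0.715%, and 0.412% with a lower response. Its response was -0.003 ± 0.325 in clones and 0.88 ± 0.20 in control lines (SD, n = 7 and 3), a difference of -0.88 ± 0.17 (SE) with a limma adjusted p of 0.0357. Averaged over both sets, every clone lay below every control line, and the share of all genes with such a gap was not computed. Within each set the groups overlapped. In replicate 1 responses ran from -0.255 to 0.938 in clones and 0.5 to 1.344 in control lines. In replicate 2 they ran from -1.19 to 0.356 in clones and 0.235 to 1.083 in control lines. Within the sets the difference kept its direction, at -0.61 in replicate 1 (adjusted p = 0.274), and at -1.15 for replicate 2 (adjusted p = 0.181), and neither passed alone. The next differences were in COL1A1, the main chain of collagen I (-0.37 ± 0.13, SE, adjusted p = 0.207), COL6A1 (-0.30 ± 0.09, SE, adjusted p = 0.148) and COL4A6 (0.28 ± 0.10, SE, adjusted p = 0.178). The other COL1A1 probe sets gave 0.03 (adjusted p = 0.932) and 0.32 (0.514), so they did not share the sign. Those of COL6A1 lay between -0.22 and 0.01 (adjusted p from 0.269 to 0.983). The call of COL5A2 was lost without control 1 (adjusted p = 0.247), control 2 (0.0584), control 3 (0.0639), clone 10 (0.0622) or clone 19 (0.0679), and its other probe set gave -0.42 (adjusted p = 0.274).

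**Figure D2:**
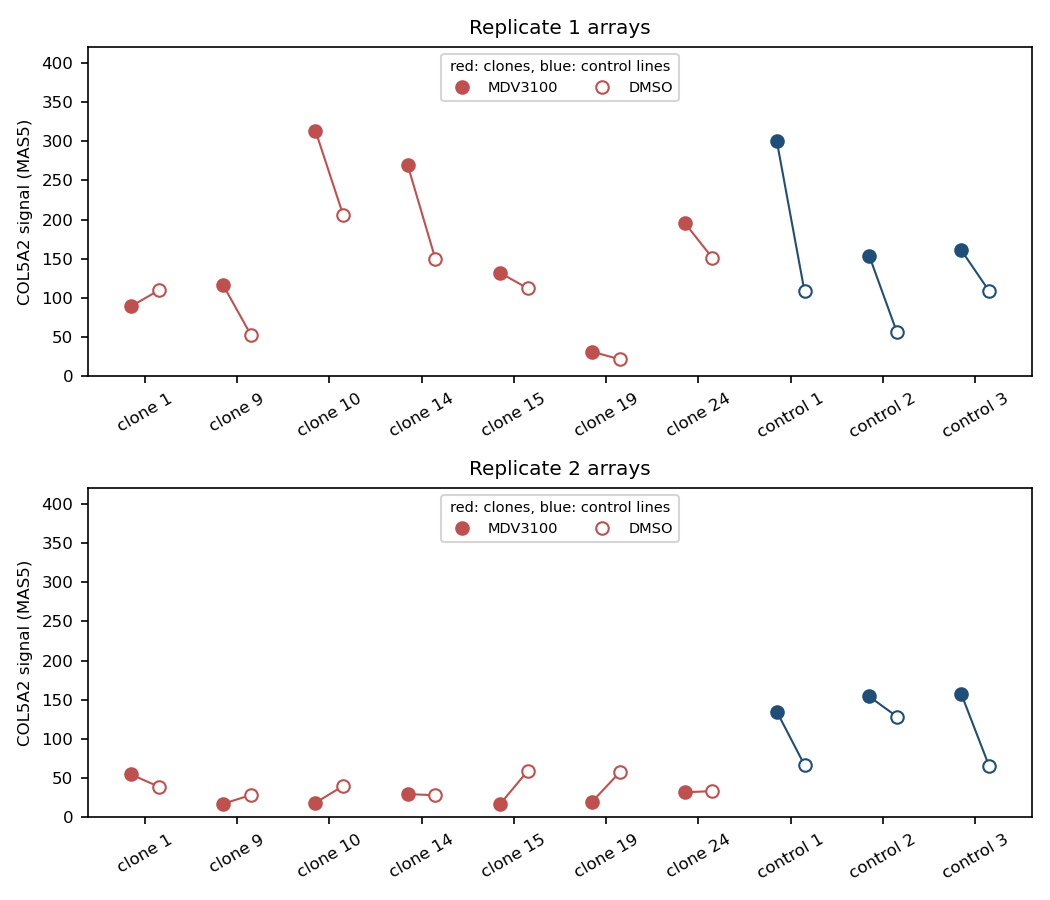
COL5A2 signal (MAS5) in each line, in replicate 1 (top) and replicate 2 (bottom), with MDV3100 as filled and DMSO as open points joined by a line, clones in red and control lines in blue. All 6 control pairs are higher with the drug, 6 of 7 clone pairs are in replicate 1 and 2 of 7 in replicate 2, where clone signals stay at or below 59.3.

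In MDV3100, 3 of the 14 collagen genes were lower in the clones than in the control lines and 0 were higher, where 8.9% of all genes were called and 4.23% were lower. They were COL5A2, COL1A1 and COL6A1. COL5A2 averaged 6.32 ± 0.51 in clones and 7.54 ± 0.20 in control lines (log2 scale, SD, n = 7 and 3), a difference of -1.23 ± 0.26 (SE, limma adjusted p = 0.0227). In replicate 2 its 7 clone signals of 17.0 to 54.9 lay below the 134.8, 154.3 and 157.1 of the control lines, a difference of -1.98 (adjusted p = 0.00395, 19.5% of all genes called). In replicate 1 the clones, 31.6 to 313.3, spanned the control lines, and the difference of -0.47 did not pass (adjusted p = 0.525, 8.97% called). The call was lost without control 1 (adjusted p = 0.113), control 2 (0.0535) or control 3 (0.0641), and the other COL5A2 probe set gave -0.85 (adjusted p = 0.088). Summed fibroblast markers in MDV3100 ran from 63.6 to 141.2 in clones and 45.6 to 55.6 in control lines in replicate 1, and from 53.1 to 89.7 in clones and 70.5 to 92.1 in control lines in replicate 2, and their part in the collagen differences was not tested.

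COL1A1 differed in the other set. In replicate 1 its signal ran from 101.2 to 157.0 with a median of 126.6 in clones in MDV3100, below the 321.1, 347.9 and 188.8 of controls 1, 2 and 3, a difference of -1.004 (adjusted p = 0.0125). In replicate 2 it ran from 65.2 to 155.7 in clones, against 157.4, 92.6 and 114.8 in control lines, and the groups overlapped (difference -0.21, adjusted p = 0.555). Over both sets it averaged 7.03 ± 0.25 in clones and 7.64 ± 0.28 in control lines (SD, n = 7 and 3), a difference of -0.61 ± 0.16 (SE, adjusted p = 0.0392). COL1A1 has other probe sets above the filter, and they did not follow the brightest one closely. Over the 20 arrays of a set, one correlated with it at r = 0.19 in replicate 1 and 0.16 in replicate 2, and another at -0.45 and -0.33, as a description of arrays that share lines. In clones against control lines in MDV3100, the first of these was also lower (-0.47, adjusted p = 0.0254), while the other gave 0.16 (adjusted p = 0.599). In DMSO the first gave a difference of similar size, -0.50 (adjusted p = 0.0508), and the other gave -0.16 (0.331). The lower COL1A1 signal of that first probe set in clones was therefore not confined to the drug.

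COL6A1 averaged 8.60 ± 0.22 in clones and 9.07 ± 0.16 in control lines in MDV3100 (SD, n = 7 and 3), a difference of -0.47 ± 0.13 (SE, adjusted p = 0.0482). The difference was larger in replicate 2, where 6 of the 7 clones had signals of 187.4 to 247.8 and clone 1 had 434.1, against 405.9, 570.3 and 524.6 in controls 1, 2 and 3 (-0.97, adjusted p = 0.0208). In replicate 1 clones ran from 487.6 to 620.6, against 548.2, 615.1 and 491.9 in control lines, and the difference was 0.03 (adjusted p = 0.888). COL7A1 had a difference of 0.40 ± 0.15 (SE, adjusted p = 0.111), higher in clones, which passed with the replicate number as a block (adjusted p = 0.0438). The 4 other COL6A1 probe sets gave -0.30 (adjusted p = 0.193), -0.20 (0.125), -0.10 (0.461) and 0.03 (0.911), so none passed and the last had the opposite sign. The calls of COL1A1 and COL6A1 were lost without any one control line and without clone 9, 10, 14 or 15, at adjusted p from 0.0567 to 0.187, and that of COL6A1 also without clone 19 (0.0734) or 24 (0.0635).

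**Figure D3:**
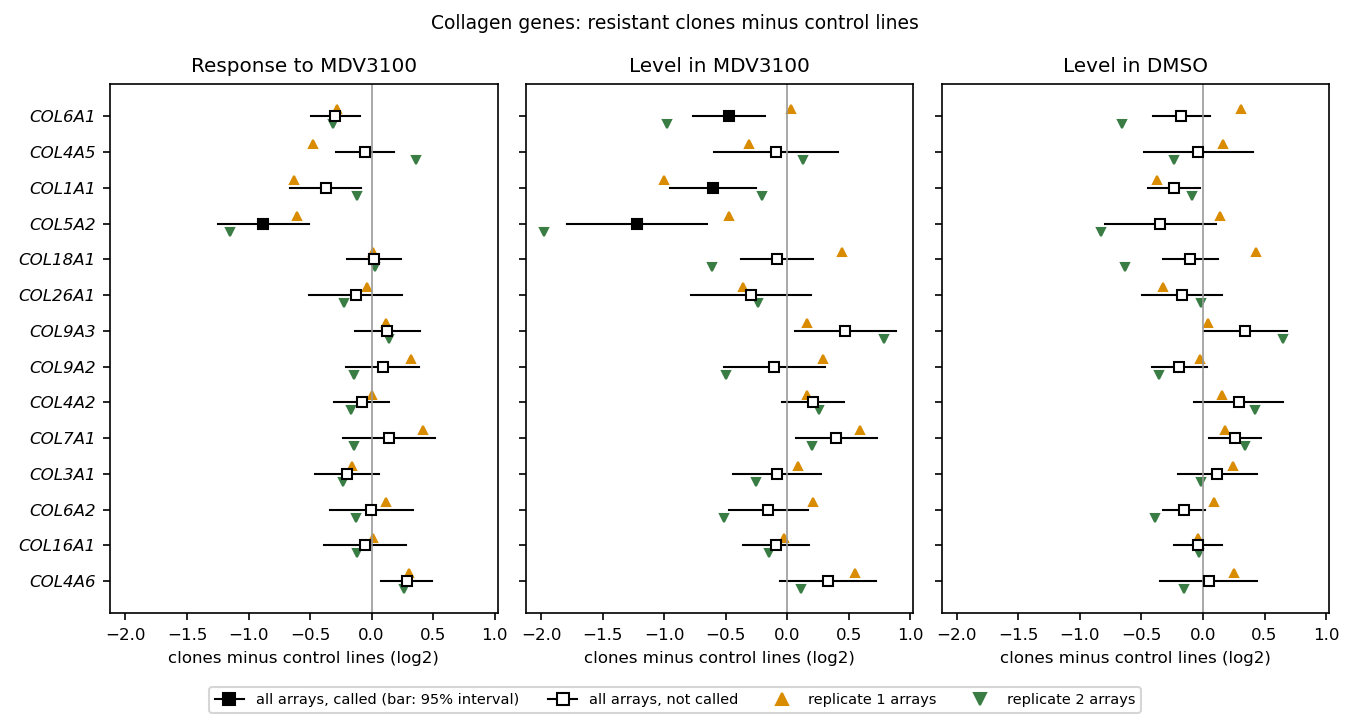
Clones minus control lines for the 14 tested collagen genes, on the log2 scale, for the response to MDV3100, the level in MDV3100 and the level in DMSO. Squares with 95% intervals use all arrays and are filled where called, and triangles give replicate 1 and replicate 2 arrays alone. These lie on opposite sides of 0 at both levels for COL6A1 and COL18A1, among others.

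In DMSO, without the drug, 0 of 14 collagen genes differed between clones and control lines at an adjusted p under 0.05, against 14 of all genes called or 0.118%. An unadjusted limma p under 0.05 was found for 3 of the 14, against 24.3% of all genes. COL1A1 line means were 7.09 ± 0.15 in clones and 7.32 ± 0.08 in control lines, with a difference of -0.23 ± 0.10 (SE, adjusted p = 0.174). In replicate 1 its signals ran from 105.4 to 155.7 in clones and 154.4 to 198.9 in control lines. In replicate 2 the clones, 71.7 to 157.5, spanned the control lines, 112.2 to 126.9. COL5A2 had the largest difference, 6.32 ± 0.41 in clones and 6.67 ± 0.01 in control lines (SD, n = 7 and 3), or -0.35 ± 0.21 (SE, adjusted p = 0.322). COL9A3, a FACIT chain, had 5.76 ± 0.29 in clones and 5.41 ± 0.05 in control lines, or 0.35 ± 0.16 (SE, adjusted p = 0.197). On the replicate 2 arrays COL9A3 ran from 39.7 to 73.5 in the clones other than clone 1, which had 16.4, against 34.6, 16.2 and 19.2 in controls 1, 2 and 3. On the replicate 1 arrays the clones ran from 21.6 to 41.1, against 22.7, 38.6 and 33.1 in control lines.

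Within the sets, the differences of COL6A1, COL5A2 and COL18A1 in DMSO had opposite signs. In replicate 2, COL6A1 (difference -0.66, adjusted p = 0.0414), COL5A2 (-0.83, adjusted p = 0.0424) and COL18A1 (-0.63, adjusted p = 0.0469) were lower in clones, where 10.3% of all genes were called. In replicate 1, 0 of 14 were called, where 6.12% of all genes were, and 3 had an unadjusted p under 0.05, where 26.1% of all genes did. COL6A1, COL5A2 and COL18A1 had differences there of 0.31 (adjusted p = 0.108), 0.14 (0.882) and 0.43 (0.0516). COL18A1 shows the pattern in its signals. In replicate 1 the clones ran from 65.0 to 97.4 in DMSO, above the 58.0, 56.7 and 46.0 of the control lines. In replicate 2 the 6 clones other than clone 1 ran from 30.4 to 43.3 and clone 1 had 68.5, against 54.8, 80.1 and 80.8 in controls 1, 2 and 3.

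Replicate 2 was therefore compared with replicate 1 over the 10 lines. COL6A1, COL5A2, COL9A2, COL1A1 and COL18A1 were lower in replicate 2, 5 of 14 collagen genes, and 0 were higher, where 26.2% of all genes were called and 16.5% were lower. COL6A1 averaged 8.32 ± 0.48 in replicate 2 and 9.11 ± 0.15 in replicate 1 (SD, n = 10 lines), a difference of -0.79 ± 0.16 (SE, adjusted p = 0.0069). COL5A2 differed by -1.09 ± 0.29 (SE, adjusted p = 0.0198), COL9A2 by -0.50 ± 0.15 (0.0328), COL1A1 by -0.42 ± 0.13 (0.0331) and COL18A1 by -0.54 ± 0.17 (0.0398). For each of these genes 8 or more of 10 lines were lower in replicate 2. The exceptions for COL6A1 were controls 2 and 3, and the control lines' signals in both sets lay between 375.8 and 615.1, while the clones other than clone 1 lay at or below 277.6 in replicate 2 and at or above 462.3 in replicate 1. The call of COL6A1 was kept with any 1 line left out but lost with the mean of its probe sets (-0.21, adjusted p = 0.0687), as 1 of its 4 other probe sets passed (-0.64, adjusted p = 0.0133) and the rest lay between -0.23 and 0.03 (adjusted p from 0.202 to 0.823). The other COL5A2 probe set gave -1.01 (adjusted p = 0.0597), and that of COL18A1 gave -0.48 (0.0724). Of the other COL1A1 probe sets, one passed (-0.54, adjusted p = 0.0147) and another showed no difference (0.03, adjusted p = 0.841). The call of COL5A2 was lost without clone 24 (adjusted p = 0.0517). The calls of COL9A2 and COL18A1 were lost without any one of clones 9, 10, 14, 15, 19 and 24 (adjusted p from 0.0531 to 0.0957), and that of COL1A1 without control 1 or clones 1, 9 or 10 (0.0532 to 0.0758).

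COL9A2, with its partner COL9A3, makes up part of collagen IX, a FACIT of cartilage. In MDV3100 it had a median of 16.6 and a highest value of 31.2 over the 7 clones in replicate 2, against a median of 48.7 and a highest value of 77.2 in replicate 1. The control lines had 33.0, 14.3 and 64.3 in replicate 2, against 38.2, 30.3 and 31.1 in replicate 1, with no common direction. COL9A3 had a difference of the other sign that did not pass (0.24 ± 0.15, SE, adjusted p = 0.249), with a median over clones in MDV3100 of 64.2 in replicate 2 and 36.8 in replicate 1. The ratio of the 3′ to the 5′ actin probe sets had a median of 3.21 (2.59 to 3.95) in replicate 2 and 4.11 (3.18 to 6.59) in replicate 1, and its part in these differences was not tested.

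**Figure D4:**
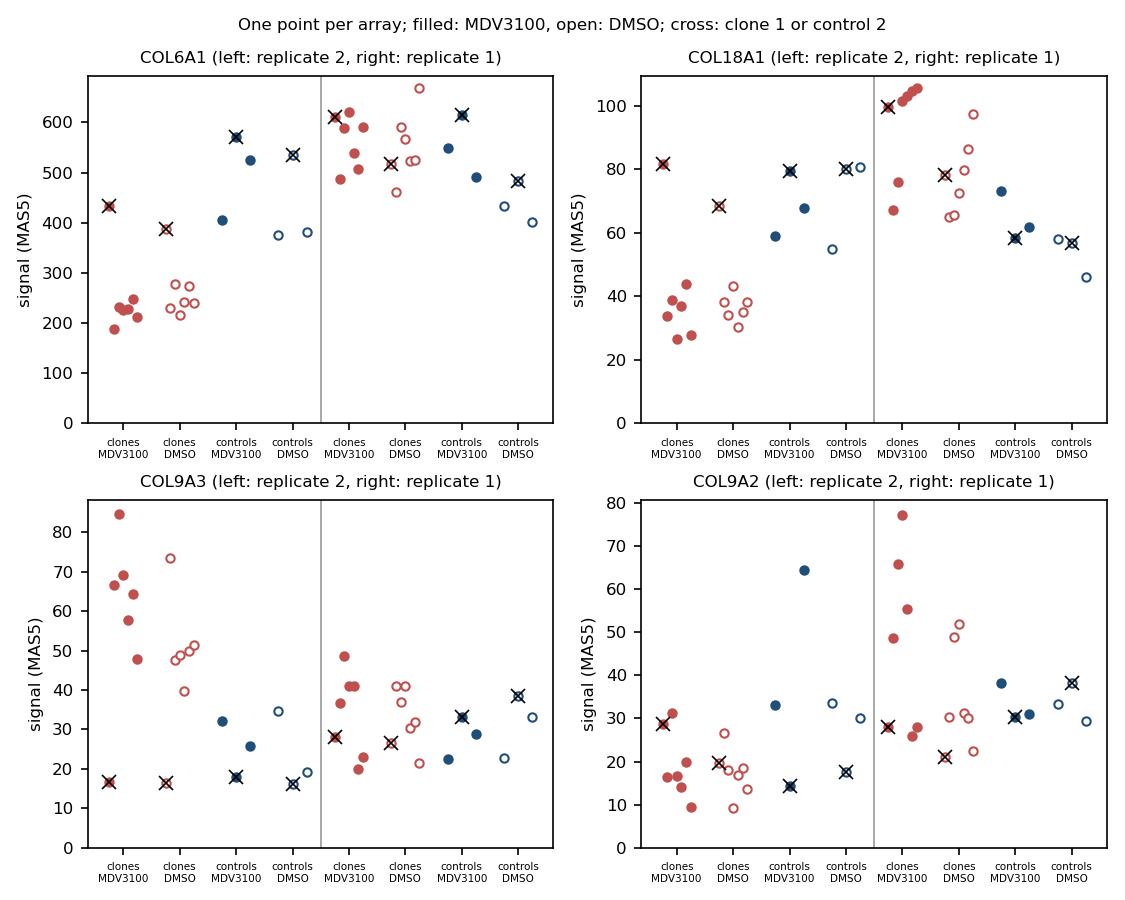
Signal (MAS5) of COL6A1, COL18A1, COL9A3 and COL9A2 on every array, with replicate 2 left and replicate 1 right in each panel, clones in red, control lines in blue, MDV3100 filled and DMSO open. Crosses mark clone 1 and control 2; in replicate 2 clone 1 sits apart from the other clones for COL6A1 (434.1 and 387.6), COL18A1 and COL9A3.

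Chain partners and genomic neighbours were compared line by line within each set, from the mean of a line's MDV3100 and DMSO arrays, in 10 relations (5 pairs in each of 2 sets, 10 lines). COL4A5 and COL4A6, which start 380 bases apart and are both chains of basement membrane collagen, moved together in replicate 2, with Pearson's r = 0.83 (permutation p = 0.0042, adjusted 0.015) and Spearman's rho = 0.83 (permutation p = 0.0048, adjusted 0.024). Without the 2 lines farthest from the median of COL4A5, r was 0.90. In that set COL4A5 signals were 181.9 to 241.9 in clones 9 and 10 and 356.8 to 518.7 in clones 14, 15, 19 and 24. The best-correlated array of each of these clones also lay within its own group of clones. The permutation test treats lines as independent, so its p-values do not allow for such groups. In replicate 1 r was 0.64 (permutation p = 0.052, adjusted 0.075) and rho 0.37 (permutation p = 0.3, adjusted 0.37), and r was 0.39 without the 2 farthest lines. There clones 1 and 24 were high in both genes, with COL4A6 signals of 34.1 and 47.2 in MDV3100 and 36.4 and 28.4 in DMSO, while the 3 control lines had COL4A6 signals of 4.9 to 13.8.

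**Figure D5:**
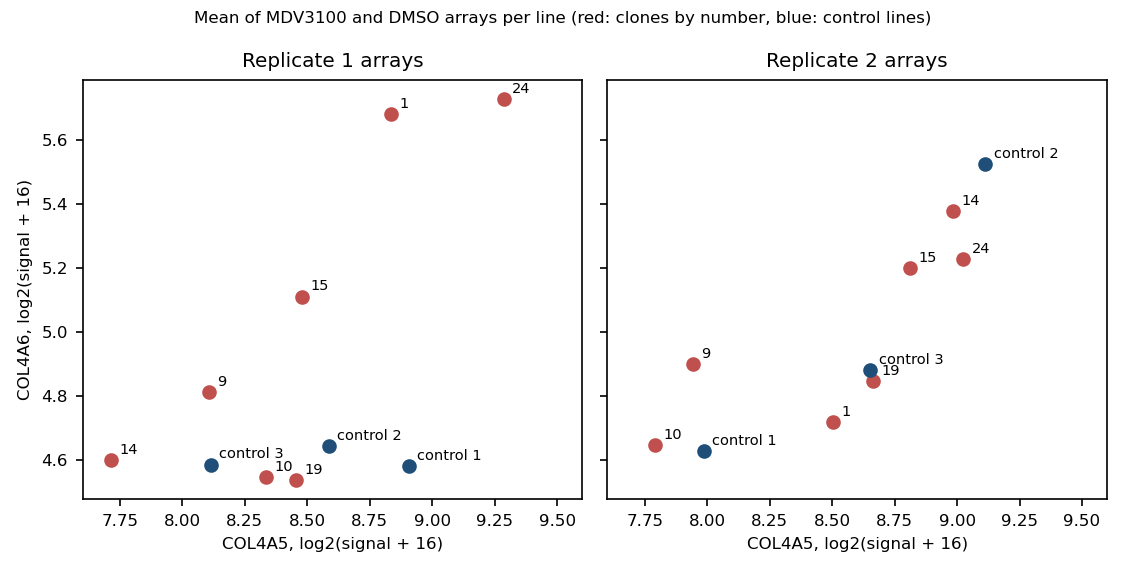
COL4A6 against COL4A5, both as log2(signal + 16), for each line as the mean of its MDV3100 and DMSO arrays, with clones in red by number and control lines in blue. In replicate 2 the lines lie along a rise (r = 0.83), and in replicate 1 clones 1 and 24 stand above the rest.

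COL9A2 and COL9A3, chains of one molecule on chromosomes 1 and 20, had r = 0.79 (permutation p = 0.006, adjusted 0.015) and rho = 0.77 (permutation p = 0.012, adjusted 0.037), and r = 0.64 without the 2 farthest lines, all in replicate 1. COL3A1, the chain of collagen III in reticular fibres, and its neighbour COL5A2 had r = 0.75 (permutation p = 0.013, adjusted 0.026) and rho = 0.76 (permutation p = 0.015, adjusted 0.037) in replicate 1, with r = 0.76 without the 2 farthest lines. COL6A1 and COL6A2 had r = 0.41 (permutation p = 0.24, adjusted 0.29) and rho = 0.52 (permutation p = 0.13, adjusted 0.19) in replicate 1, with r = 0.42 without the 2 farthest lines. COL6A1 and COL18A1 had r = 0.64 (permutation p = 0.052, adjusted 0.075) and rho = 0.56 (permutation p = 0.097, adjusted 0.16), and r was 0.27 without the 2 farthest lines. In replicate 2, 6 clones stood apart from clone 1 and the control lines in COL6A1, COL18A1 and COL9A3, and all 7 clones from the control lines in COL5A2, so no pooled correlation of these genes is given there. Within the clones of one cluster, a choice made after seeing the data with p-values adjusted over 4 relations, none of these pairs passed an exact permutation test. COL9A2 and COL9A3 had r = 0.72 (exact p = 0.13, adjusted 0.48) and rho = 0.66 (exact p = 0.17, adjusted 0.7) over the 6 clones, and r was 0.56 without the 2 farthest. COL3A1 and COL5A2 had r = 0.30 (exact p = 0.53, adjusted 0.71) and rho = 0.21 (exact p = 0.66, adjusted 0.88) over the 7 clones, and r was -0.43 without the 2 farthest, so their relation in replicate 1 was not seen there. COL6A1 and COL18A1 had r = 0.58 (exact p = 0.24, adjusted 0.48) and rho = 0.49 (exact p = 0.36, adjusted 0.71) over the 6 clones, and r was 0.79 without the 2 farthest. COL6A1 and COL6A2 had r = -0.10 (exact p = 0.85, adjusted 0.85) and rho = -0.03 (exact p = 1, adjusted 1), and r was 0.96 over the 4 clones left without the 2 farthest. COL6A2 signals followed that split in part, at 6.8 to 15.9 in the 6 clones and 10.5 to 33.4 in clone 1 and the control lines.

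The genes that process, cut, bind or accompany collagens were counted from lists. Of 18 tested genes for chain modification and folding (22 listed), 1 was higher and 2 were lower in clones in MDV3100, where 8.9% of all genes were called and 4.23% were lower, and 0 were called in the other comparisons of clones and controls or of the drug. PLOD2, a lysyl hydroxylase whose product allows stable cross-links, was higher in clones by 1.16 ± 0.31 (SE, adjusted p = 0.0392), with means of 6.10 in clones and 4.93 in control lines. FKBP10, a collagen chaperone, was lower, with a difference of -0.66 ± 0.10 (SE, adjusted p = 0.00792), and so was P4HA2, a prolyl hydroxylase subunit, with -0.47 ± 0.13 (SE, adjusted p = 0.0478, or 0.0561 with the replicate block). In the sets, PLOD2 differed by 0.75 in replicate 1 (adjusted p = 0.205) and 1.58 in replicate 2 (0.0244), FKBP10 by -0.49 (0.124) and -0.83 (0.0134), and P4HA2 by -0.83 (0.0601) and -0.11 (0.758). Of 16 listed genes for procollagen cleavage and cross-linking only 3 were tested, and 0 were called in the same comparisons. LOX and its relatives LOXL1, LOXL2, LOXL3 and LOXL4, the enzymes that cross-link collagen, all lay below the filter.

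The lists that follow stand against the same 8.9% of all genes for the level in MDV3100. For the difference of responses the share was 0.715%. Among 6 tested genes of collagen breakdown (15 listed), MMP16, a membrane-bound metalloproteinase, was lower in clones in MDV3100, with a difference of -0.99 ± 0.17 (SE, adjusted p = 0.0123), and MMP13, a collagenase, was higher by 0.34 ± 0.08 (SE, adjusted p = 0.0276). In the sets, MMP16 differed by -1.07 in replicate 1 (adjusted p = 0.00613) and -0.90 in replicate 2 (0.13). MMP13 differed by 0.38 (0.0758) and 0.29 (0.0964). Of 4 tested collagen receptors (11 listed) 0 were called in the comparisons of clones and controls or of the drug. Of 10 tested genes of TGF-beta signalling (15 listed), a pathway that induces collagen genes in fibroblasts, TGFB2 was higher in clones in MDV3100 by 1.54 ± 0.38 (SE, adjusted p = 0.0315). The replicate 2 arrays alone gave 3.24 (adjusted p = 0.0221), whereas the difference for replicate 1 was -0.17 (adjusted p = 0.372). SKI, a repressor of the pathway, was lower, at -0.54 ± 0.12 (SE, adjusted p = 0.0236), and its difference was -0.97 on the replicate 2 arrays alone (adjusted p = 0.0205), while those of replicate 1 gave -0.12 (0.64). PMEPA1, an inhibitor of the pathway that androgen also induces, responded to the drug by 0.015 in clones and -0.92 in control lines, a difference of 0.93 ± 0.17 (SE, adjusted p = 0.0308). Of 8 tested other basement membrane genes (15 listed), LAMA1, a laminin chain, was higher in clones in MDV3100 by 0.81 ± 0.21 (SE, adjusted p = 0.0354), and AGRN, a heparan sulfate proteoglycan, was lower, at -0.54 ± 0.12 (SE, adjusted p = 0.0258), with 0.01 in replicate 1 and -1.10 in replicate 2. LAMA1 differed by 0.62 in replicate 1 (adjusted p = 0.166) and 1.00 in replicate 2 (0.0671). In MDV3100 the control-line means of TGFB2, LAMA1 and MMP13 were 4.379, 4.518 and 4.64, under the filter of 4.8. Their clone means were 5.915, 5.331 and 4.978, so the higher clone signals helped these genes pass the filter.

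Between the replicate sets, where 26.2% of all genes were called, the same lists had between 2 of 18 and 5 of 8 tested genes called. For chain modification and folding these were FKBP10, with a difference of -0.74 ± 0.10 (SE, adjusted p = 0.0011), and CRTAP, part of the prolyl 3-hydroxylation complex, with -0.24 ± 0.07 (SE, adjusted p = 0.0239), both lower in replicate 2. Of the 3 tested genes for cleavage and cross-linking, BMP1, which removes the procollagen C-propeptide, was lower (-0.38), and of the 4 receptors ITGA2, the alpha chain of a collagen-binding integrin, was lower (-0.61). Of the 6 genes of breakdown, MMP13 was higher and MMP16 and TIMP2, an inhibitor of metalloproteinases, were lower. HSPG2, which encodes the basement membrane proteoglycan perlecan, was lower in replicate 2, with a difference of -0.80 ± 0.16 (SE, adjusted p = 0.00722), and so were LAMA5, LAMB2 and AGRN, 4 of the 8 tested basement membrane genes, while LAMA1 was higher. Of the 10 TGF-beta genes, SMAD2, SMAD3, SMAD4 and SKI were lower in replicate 2 and TGFB2 was higher, by 1.85 ± 0.48 (SE, adjusted p = 0.0181). The replicate 1 means of TGFB2 and MMP13, 4.452 and 4.718, lay under the filter of 4.8.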

How the data were processed

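MAS5 signals, per the submitters' processing notes, were deposited by the authors as linear intensity values, with a 2% trimmed mean of 150 on every array. Per the labels, RNA was amplified and labelled with biotin. Array medians lay between 10.7 and 18.4, and precision is limited by how many arrays there are.

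For each gene the brightest of the probe sets naming 1 gene was used (41097 of 54675 probe sets name 1). The deposited signals were turned into log2(signal + 16), which understates changes of dim genes, and 11893 genes with a mean of at least 4.8 were tested with limma 3.58.1 in R 4.3.3, with Benjamini-Hochberg adjustment over all of them and an adjusted p under 0.05 as a call. In control lines the drug was tested over 12 arrays with a term for each line, and elsewhere each line gave 1 value. On simulated data with 200 of 11893 genes changed, 90% to 98% of those changed by 1 log2 unit were recovered over the 6 comparisons. The simulated noise was independent between arrays, without effects shared by a line or a replicate set. These shares therefore do not say how many real changes of that size would be found here. Relations between pairs used permutation tests in scipy 1.17.1.

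The replicate numbers pair the arrays: deviations from group means correlated at 0.48 to 0.87 over 20 pairs of a line's arrays. A block on these numbers was an alternative, as were each set alone, each line left out, other pseudocounts, filters, probe sets, normalization and variance models.

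Members and lists were chosen with earlier results of these data known. Per-sample values are given for the collagen genes called in any comparison or set, the 5 brightest, the 2 largest differences per comparison and chain partners, and otherwise for up to 4 called genes of each list. Some marker genes are not analysed here.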

Additional observations from a re-analysis of the deposited data

Results flagged for a closer look

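Of 112 tests for a sample far from the rest of its group, 15 found one, and chance alone flags about 1 in 20 groups. Clone 1 accounts for 8 of them. In replicate 2 it had the highest COL6A1 signal of the 7 clones, 434.1 in MDV3100 (others 187.4 to 247.8) and 387.6 in DMSO (others 217.1 to 277.6), the highest COL18A1, 81.8 in MDV3100 and 68.5 in DMSO, the highest COL26A1 in MDV3100, 78.7 (others 18.6 to 32.2), and the lowest COL9A3 in MDV3100, 16.6 (others 47.8 to 84.7). In replicate 1 it had the lowest COL7A1 in DMSO, 11.5 (others 21.6 to 29.8), and the lowest COL1A1 response, -0.39 (others -0.04 to 0.19). Control 2 of replicate 2 stood apart from the other 5 control arrays in 4 cases. It was highest for COL4A6, at 23.9 in MDV3100 and 37.0 in DMSO, and for COL4A5 in DMSO, at 616.0, and lowest for COL4A2 in MDV3100, at 10.6. The others were COL5A2 in control 1 of replicate 1 in MDV3100, 299.8 (others 134.8 to 160.8), COL26A1 in clone 19 of replicate 1 in DMSO, 90.1 (others 19.1 to 39.0), and COL16A1 in clone 15 of replicate 2 in MDV3100, 18.1 (others 13.6 to 14.6).

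The response of COL5A2 to MDV3100 differed between clones and control lines by -0.88 on the log2 scale, by limma's test of the difference itself.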

How the results depend on the processing

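The number of collagen genes called moved with the settings. In the control lines it was 0, and 1 without replicate 2, with the replicate block, or in replicate 2 with control 2 and clone 1 left out (all COL5A2), and 2 with one difference per line (COL5A2 and COL4A6). For the difference of responses it was 1, and 0 in either set alone, with a pseudocount of 1, without the filter, with the mean of probe sets or with an intensity trend. Leaving out one line gave 0 to 1. For the level in MDV3100 it was 3, and 1 in replicate 1 alone, with a pseudocount of 1, without the filter or with the mean of probe sets. It was 6 in replicate 2 with control 2 and clone 1 left out, and leaving out one line gave 0 to 4. For the level in DMSO it was 0, and 3 in replicate 2 alone, with or without control 2 and clone 1, and leaving out one line gave 0 to 2 (COL7A1 and COL9A3 without clone 1). Between the replicate sets it was 5, and 3 without the filter or with the mean of probe sets, 2 with quantile normalization or in DMSO arrays alone, and 2 to 5 with one line left out. In the clones it was 0 under every alternative run. Differences reversed in replicate 1 alone for COL6A1 (0.031 in MDV3100, against -0.974 in replicate 2 alone, and 0.31 in DMSO, against -0.661), COL5A2 (0.137 in DMSO, against -0.829) and COL18A1 (0.428 in DMSO, against -0.634), and for COL18A1 in DMSO with the mean of probe sets (0.024). The causes were not tested. The replicate block changed the calls of COL5A2 in control lines (adjusted p = 0.0121) and COL7A1 in MDV3100 (0.0438) and of no other collagen gene. With the block, calls over all genes were 306 in control lines, 161 in clones, 1638 in MDV3100 and 630 in DMSO. Without it, they were 12 (0 to 713 over the alternatives) in control lines, 60 (0 to 240) in clones, 85 (0 to 142) for the difference, 1059 (8 to 3507) in MDV3100, 14 (0 to 2206) in DMSO and 3121 (1778 to 4024) between the sets. Leaving out control 2 and clone 1 from replicate 2 alone, correlations within clones, and taking other probe sets as genes of their own, were chosen after seeing the data. The 2 lines left out had the smallest COL5A2 response of the control lines and the largest of the clones in that set, and clones 9, 10 and 14 of replicate 1 were kept, so nothing is read from the counts without them. Signals near the filter limit what can be said of COL4A6, COL16A1, COL6A2 and COL3A1, and signals near or below it limit what can be said of TGFB2, LAMA1 and MMP13.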
